A study of Mus musculus with 10 samples.

Results

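The phagocyte NADPH oxidase was followed through the transcripts of 5 of its subunits, Cybb, Cyba, Ncf1, Ncf4 and Rac2, which are 5 of the 50600 gene entries in the RNA-seq tables. They were found in the tables by gene symbol, and all 5 passed the filter on low counts, which kept 14875 genes. Bulk RNA of 10 mice was sequenced, with 1 library per mouse, to set 3 translocation models of acute myeloid leukemia against normal marrow cells. Cbfb::MYH11 tumors were spleen cells of 2 female mice (30 and 27) labelled Inversion 16 and Mx+; Hygr+, from a line with an Mx1-driven Cre and a floxed Cbfb::MYH11 allele, that received Poly(I:C) at postnatal day 45. MLL::AF9 tumors were spleen cells of 3 untreated MLL-AF9 +/- mice, of which 2 and 42 were male and 47 female by the labels. MLL::ENL tumors were spleen cells of 3 untreated mice, NO and RL female and L with no sex given, which grew from retrovirally transduced stem and progenitor cells placed with WT marrow in irradiated hosts, so host cells may be present. WT cKit+ cells were bone marrow cells of 2 female wild-type mice (1 and 2). All mice were C57BL/6, tumor cells were taken by magnetic selection for cKit, Gr1 and CD11b (Mac1) and WT cells for cKit, although the labels mark Cbfb::MYH11 27 as cKit+ and 30 as cKit_. Ages at collection are not given in the sources used here. Tissue, the antigens used for selection and the way each tumor was made cannot be told apart from the translocation in any comparison with WT cells.

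In neutrophils and macrophages the oxidase transfers electrons from NADPH in the cytosol to oxygen outside the membrane, which makes superoxide for killing of microbes. Its membrane part is a heterodimer of gp91phox, encoded by Cybb, and p22phox, encoded by Cyba. On activation cytosolic proteins, among them p47phox (Ncf1) and p40phox (Ncf4), and a Rac GTPase join it. Loss of gp91phox, p22phox, p47phox or p40phox causes chronic granulomatous disease in humans. Some of the subunits are known to accumulate late in granulocyte and monocyte development.

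Library totals were between 12134917 and 20510574 expected counts, and levels are given as CPM, counts scaled to a common library size by the TMM method. A single edgeR quasi-likelihood fit of all libraries over the 14875 genes gave every test, with a threshold of 0.05 on the adjusted p. Marker genes of mature neutrophils (10 genes) summed to between 79.6 and 200 CPM in Cbfb::MYH11 tumors, 12080 and 155600 in MLL::AF9 tumors, 3510 and 60640 in MLL::ENL tumors, and 76780 and 132100 in WT cKit+ cells. Markers of granulocyte progenitors (6 genes) summed to at most 339.2, 14710, 22190 and 15570 CPM in the same groups. Mast cell and basophil markers (6 genes) summed to 1929 and 2542 CPM in Cbfb::MYH11 tumors, at most 256.7 in any MLL tumor, and 527.5 and 420.8 in WT cells, with 2 of the 6 called higher and 2 lower in Cbfb::MYH11 against WT. Of these genes Ms4a2 stood at 841.1 and 746.9 CPM in Cbfb::MYH11 tumors, at most 3.16 in any MLL tumor, and 9.79 and 8.40 in WT cells. Kit, on which WT cells were selected, stood at 186.6 and 289.7 CPM in Cbfb::MYH11 tumors, between 31.3 and 119.3 in MLL tumors, and 65.7 and 88.7 in WT cells. Erythroid markers (6 genes) summed to at most 9881 CPM in any tumor and between 41380 and 204800 CPM in WT cells, so markers of mature neutrophils and of red cells were both high in the cells labelled cKit+.

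Cbfb::MYH11 tumors had less transcript of 3 of the 5 subunits than WT cKit+ cells had and more of none, while 6.92% of all genes tested were called lower and 3.54% higher (10.5% in either direction). The 3 were Cybb, Ncf1 and Ncf4, each lower by 49.7-fold or more. No subunit passed against WT in MLL::AF9 tumors, where 0.807% of all genes were called higher and 2.08% lower, or in MLL::ENL tumors, where 0.551% were higher and 1.55% lower. The CPM ranges of Cbfb::MYH11 tumors and WT cells did not overlap for 4 of the 5, all lower, against 31.9% of all genes tested that were lower with no overlap and 28.8% that were higher. In bulk RNA, fewer cells of a type and less RNA per cell cannot be told apart. The sum of mature neutrophil markers was also lower in both Cbfb::MYH11 libraries. So was that of monocyte and macrophage markers (10 genes), at 265.4 and 359.2 CPM in Cbfb::MYH11 30 and 27, against 1589 and 932.7 CPM in WT 1 and 2, as were those of eosinophil, B cell, and T and NK cell markers. Not every gene followed the sums, and 2 of the 10 monocyte and macrophage genes passed as lower. Csf1r, among these 10, had 85.45 and 94.61 CPM in Cbfb::MYH11 30 and 27, against 66.36 and 69.99 CPM in WT 1 and 2. Of the eosinophil, B cell, and T and NK cell genes, 4 of 6, 1 of 5 and 1 of 6 passed as lower. The part of these cells in the result was not tested.

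**Figure D1:**
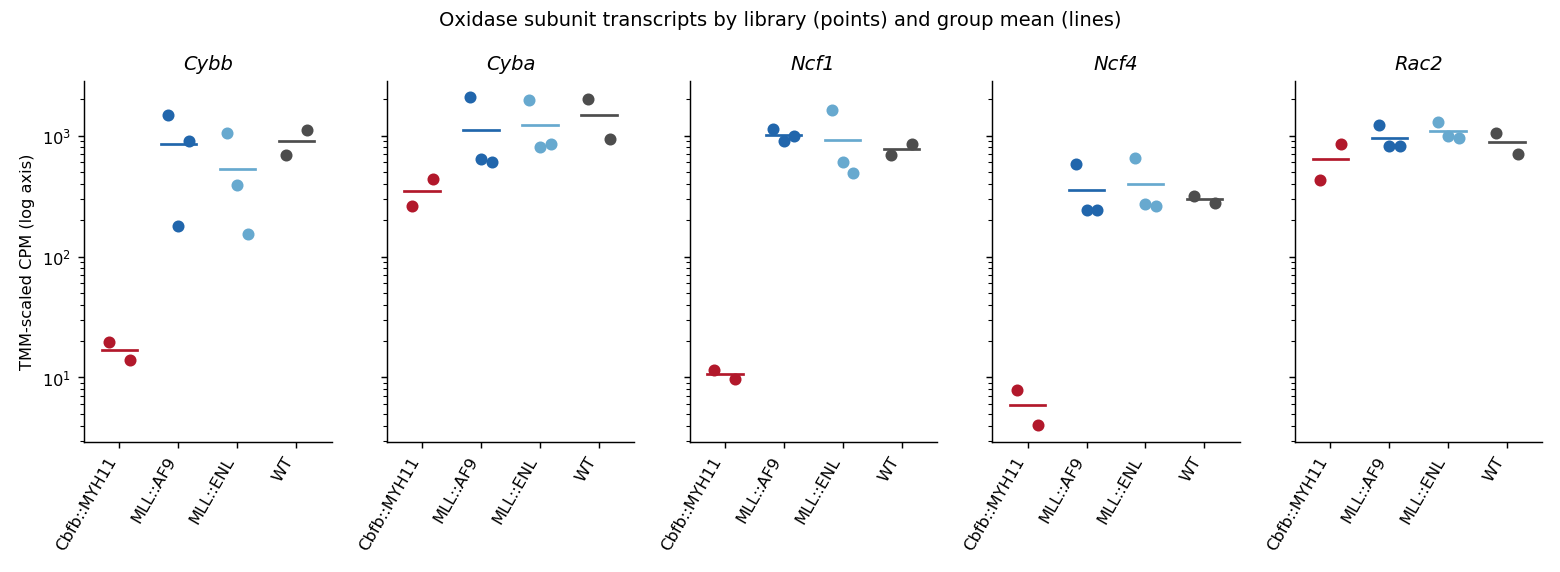
TMM-scaled CPM of the 5 oxidase subunits on a log axis, 1 point per library and a line at each group mean, with groups from left to right Cbfb::MYH11 (2), MLL::AF9 (3), MLL::ENL (3) and WT (2). For Cybb, Ncf1 and Ncf4 both Cbfb::MYH11 points lie at or below 19.8 CPM and every other point at or above 155 CPM, while Rac2 points of Cbfb::MYH11 and WT overlap.

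Cybb encodes gp91phox, the catalytic chain that carries the flavin and the hemes, and lies on the minus strand of chromosome X from 9435252 to 9487771 (mm10). Its level was 19.8 CPM in Cbfb::MYH11 30 and 13.9 CPM in Cbfb::MYH11 27, against 690 and 1119 CPM in the WT libraries. The MLL::AF9 libraries 2, 47 and 42 had 1469, 179 and 906 CPM, and the MLL::ENL libraries NO, RL and L had 1048, 391 and 155 CPM. Both Cbfb::MYH11 libraries thus lay below every other library, and the MLL libraries spread on both sides of the WT range. The log2 fold change in Cbfb::MYH11 tumors against WT was −5.74 (standard error 1.15, 95% interval −8.32 to −3.17, adjusted p = 0.0139 from edgeR), 53.6-fold lower. It also passed in edgeR with RLE scaling (adjusted p = 0.0164), without the filter (5.11e-05) and with these groups only (0.000309), and by DESeq2 (2.6e-08) and limma-voom (0.011). This call was lost without Cbfb::MYH11 27 (adjusted p = 0.117), Cbfb::MYH11 30 (0.0867) or WT 2 (0.054), with log2 fold changes from −6.05 to −5.32 over all 10 single omissions and a p from edgeR in each. In MLL::AF9 and MLL::ENL tumors the log2 fold changes against WT were −0.09 (95% interval −1.99 to 1.82, adjusted p = 0.965 from edgeR) and −0.77 (−2.66 to 1.12, adjusted p = 0.628), with intervals that reach both directions. Without MLL::ENL NO the MLL::ENL value was −1.75 (adjusted p = 0.255 from edgeR), and without MLL::AF9 2 the MLL::AF9 value was −0.73 (0.644).

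Among the 6 MLL libraries Cybb had the widest spread of the 5 subunits, with the highest library (MLL::AF9 2) 9.48 times the lowest (MLL::ENL L), against 3.44 times for Cyba, 3.32 for Ncf1, 2.70 for Ncf4 and 1.57 for Rac2. The sum of mature neutrophil markers was 155600, 12080 and 32960 CPM in MLL::AF9 2, 47 and 42 and 60640, 6992 and 3510 CPM in MLL::ENL NO, RL and L. The 3 MLL libraries highest in Cybb (MLL::AF9 2, MLL::ENL NO and MLL::AF9 42) were also the 3 highest in these markers, and MLL::ENL L was lowest in both. The order differed for MLL::AF9 47, which had more of these markers than MLL::ENL RL but less Cybb. Granulocyte progenitor markers went otherwise, lowest of the MLL libraries in MLL::AF9 2 (2523 CPM) and highest in MLL::ENL RL (22190 CPM). MLL::AF9 2 had the highest sums of B cell markers (1097 CPM) and of T and NK cell markers (250.8 CPM) among the tumors. The part of other cells in the spread of Cybb was not tested.

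**Figure D2:**
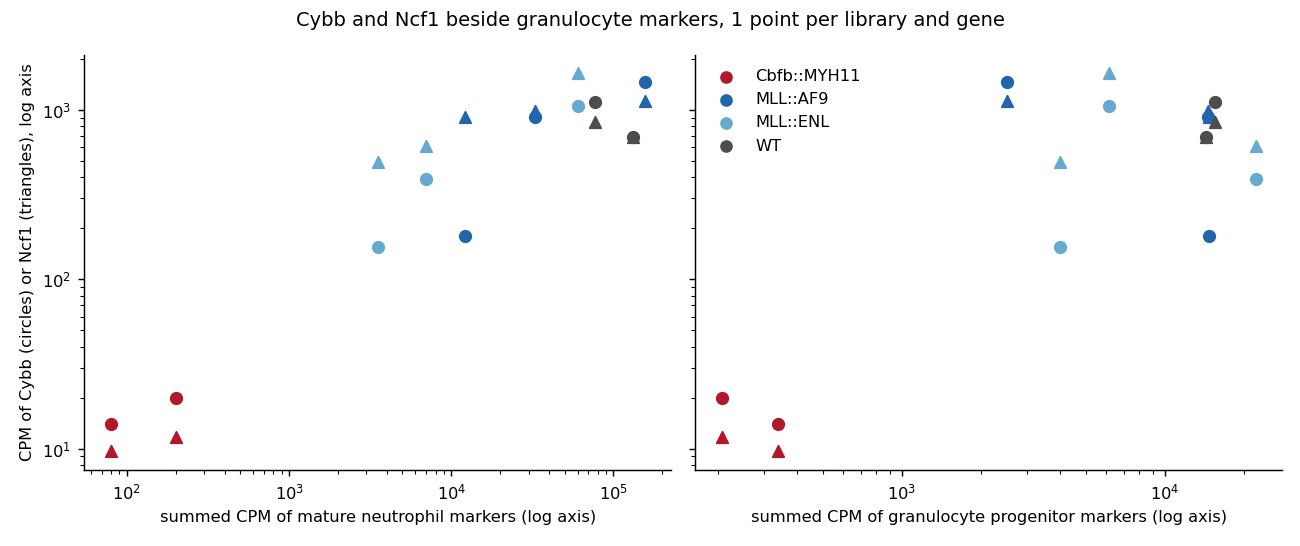
CPM of Cybb (circles) and Ncf1 (triangles) against the summed CPM of 10 mature neutrophil markers (left) and 6 granulocyte progenitor markers (right), both axes on a log scale, 1 point per library and gene with colors for the 4 groups. The Cbfb::MYH11 points sit at the low end of both axes in both panels, and among MLL libraries Cybb spans 155 to 1469 CPM while the neutrophil sum spans 3510 to 155600 CPM.

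Promoter sequences were looked up because Cybb and Ncf1 were low in the same libraries while Cyba did not pass, and RefSeq windows (GRCm38.p6) were found for these 3 of the 5 members. Each window ran from 250 bases before the start site to 50 after it, and 4 motifs were searched on both strands: GAGGAA for PU.1, an ETS and IRF composite (GGAA, any 2 bases, GAAA), TTGCNNAA for C/EBP and TGTGGT for RUNX, whose partner CBFB is the protein fused in Cbfb::MYH11. Their shares among all 32851 windows were 28.3%, 2.72%, 10.8% and 16.8%. The Cybb window held TGTGGT on the plus strand of the gene from position −103, and, on the opposite strand just after the start site, the composite from +4 and GAGGAA from +10, which overlap. The Cyba and Ncf1 windows held none of the 4, which says only that these letters are not there. The bases before each start site and the first 30 transcribed bases of Cybb follow, read 5′ to 3′ on the gene's strand (minus for all), with motif matches in capitals.
Cybb, chrX:9469325-9469574: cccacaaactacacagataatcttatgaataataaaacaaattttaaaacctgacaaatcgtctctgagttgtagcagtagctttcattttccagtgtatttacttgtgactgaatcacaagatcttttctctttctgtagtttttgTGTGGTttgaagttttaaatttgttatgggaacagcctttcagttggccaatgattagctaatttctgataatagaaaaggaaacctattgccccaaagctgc
Cybb, chrX:9469295-9469324: tgtTTTCATTTCCTCatcagaagaagaagc
Ncf1, chr5:134229626-134229875: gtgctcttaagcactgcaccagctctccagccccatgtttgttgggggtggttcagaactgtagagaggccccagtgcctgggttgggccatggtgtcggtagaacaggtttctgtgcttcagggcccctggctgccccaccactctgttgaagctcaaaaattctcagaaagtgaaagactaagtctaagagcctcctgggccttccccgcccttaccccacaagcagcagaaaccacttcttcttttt
Cyba, chr8:122432941-122433190: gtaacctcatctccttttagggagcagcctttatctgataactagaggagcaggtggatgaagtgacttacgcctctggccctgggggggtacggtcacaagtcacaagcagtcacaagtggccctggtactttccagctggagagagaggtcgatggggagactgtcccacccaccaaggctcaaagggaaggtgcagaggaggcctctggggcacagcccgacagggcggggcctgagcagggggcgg
RefSeq's Cybb start site lies inside the span that the deposited tables give for the gene, whose upstream end is 9487771. A match is a description of the sequence and shows no binding in these cells.

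Cyba encodes p22phox, the smaller membrane chain, which gp91phox needs for stability and which also pairs with other NOX enzymes, and lies on chromosome 8 from 122424776 to 122432930. It had 262 and 434 CPM in Cbfb::MYH11 30 and 27, against 2008 and 940 CPM in WT 1 and 2. The MLL::AF9 libraries 2, 47 and 42 had 2070, 641 and 601 CPM and the MLL::ENL libraries NO, RL and L had 1985, 812 and 858 CPM. The Cbfb::MYH11 libraries were again the lowest, but WT 1 was 2.14 times WT 2. By deposited TPM the WT libraries were closer, at 1843 and 1679 in WT 1 and 2, against 593 and 825 in Cbfb::MYH11 30 and 27. The log2 fold change in Cbfb::MYH11 tumors was −2.08 (standard error 0.74, 95% interval −3.73 to −0.43) and did not pass (adjusted p = 0.102 from edgeR). It passed without the filter on low counts (adjusted p = 0.0309), with DESeq2 (0.0343), in an edgeR fit of these groups only (0.0251) and in edgeR without MLL::AF9 2 (0.0401). Without WT 1 it was −1.44 (adjusted p = 0.431 from edgeR). Against WT it was −0.42 in MLL::AF9 (95% interval −1.85 to 1.02, adjusted p = 0.731 from edgeR) and −0.27 in MLL::ENL (−1.71 to 1.16, adjusted p = 0.841). Cyba lies inside the span of Gm20388, which is annotated on the opposite strand and had at most 31.2 CPM, and since strandedness is not given in the sources used here their reads cannot be told apart with certainty.

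Ncf1 (chromosome 5, 134220053 to 134229625) encodes p47phox, the organizer whose phosphorylation starts assembly. It had 11.6 and 9.65 CPM in Cbfb::MYH11 30 and 27, against 692 and 851 CPM in WT 1 and 2. The MLL::AF9 libraries 2, 47 and 42 had 1133, 905 and 992 CPM, all above both WT libraries, and the MLL::ENL libraries NO, RL and L had 1641, 609 and 494 CPM. Ncf1 stood 72.4-fold lower in Cbfb::MYH11 tumors against WT cells (log2 fold change −6.18, standard error 0.65, 95% interval −7.64 to −4.72, adjusted p = 0.000799 from edgeR), which was the lowest of the 5 subunits and rank 360 from the lowest of 14875 genes. The call held without any 1 library (adjusted p at most 0.0181 from edgeR). In MLL::AF9 tumors the log2 fold change was 0.39 (95% interval −0.68 to 1.46, adjusted p = 0.655 from edgeR), although the groups did not overlap, as was so for 20.4% of all genes tested that were higher in MLL::AF9 and 21.2% that were lower. In MLL::ENL tumors it was 0.25 (−0.82 to 1.31, adjusted p = 0.802 from edgeR). The span of Ncf1 overlaps that of Gtf2ird2, annotated on the opposite strand and counted at between 6.74 and 26.9 CPM, in the range of Ncf1 in Cbfb::MYH11 tumors.

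Ncf4 encodes p40phox, which binds phosphatidylinositol 3-phosphate on phagosomes, and lies on chromosome 15 from 78244801 to 78262580. It had 7.93 and 4.01 CPM in Cbfb::MYH11 30 and 27, against 320 and 275 CPM in WT 1 and 2. The MLL::AF9 libraries 2, 47 and 42 had 582, 242 and 244 CPM and the MLL::ENL libraries NO, RL and L had 654, 275 and 261 CPM, so 1 library of each MLL model stood above WT and the others were near or just below it. The log2 fold change in Cbfb::MYH11 tumors was −5.64 (standard error 0.72, 95% interval −7.24 to −4.03, adjusted p = 0.00193 from edgeR), 49.7-fold lower, and the call held without any 1 library (adjusted p at most 0.0279). Against WT it was 0.26 in MLL::AF9 (95% interval −0.94 to 1.46, adjusted p = 0.806 from edgeR) and 0.41 in MLL::ENL (−0.79 to 1.62, adjusted p = 0.690). The reads behind the low values were few, 154 expected counts in Cbfb::MYH11 30 and 69 in Cbfb::MYH11 27. RSEM also gave Ncf4 a different effective length in these libraries, 615 and 1244 bases, against 702 and 797 in WT 1 and 2, so its TPM, 13.8 and 3.18, differed more between them than its counts. With the effective length of each library as an offset, an alternative chosen after seeing the data, the fold change was −5.62 (adjusted p = 0.00393 from edgeR).

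Rac2 encodes the Rac GTPase of blood cells, which is part of the assembled enzyme and also serves actin and migration, and lies on chromosome 15 from 78559169 to 78572783. It had 426 and 858 CPM in Cbfb::MYH11 30 and 27, against 1061 and 700 CPM in WT 1 and 2, so the groups overlapped. The MLL::AF9 libraries 2, 47 and 42 had 1217, 822 and 823 CPM and the MLL::ENL libraries NO, RL and L had 1291, 1001 and 962 CPM. The log2 fold change against WT was −0.46 in Cbfb::MYH11 (95% interval −1.40 to 0.49, adjusted p = 0.529), 0.12 in MLL::AF9 (−0.75 to 0.98, adjusted p = 0.888) and 0.30 in MLL::ENL (−0.57 to 1.17, adjusted p = 0.687), all from edgeR. The Cbfb::MYH11 interval leaves a fall of up to 1.40 on the log2 scale undetected but does not reach the values of Cybb, Ncf1 or Ncf4. On the TPM scale the direction in Cbfb::MYH11 was the opposite, with a mean of 233 ± 96.4 TPM in Cbfb::MYH11 tumors and 196 ± 24.0 TPM in WT cells (SD, n = 2 each). The median of all genes stood 0.65 to 0.70 higher on the log2 scale in tumors against WT by TPM than by TMM-scaled CPM.

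**Figure D3:**
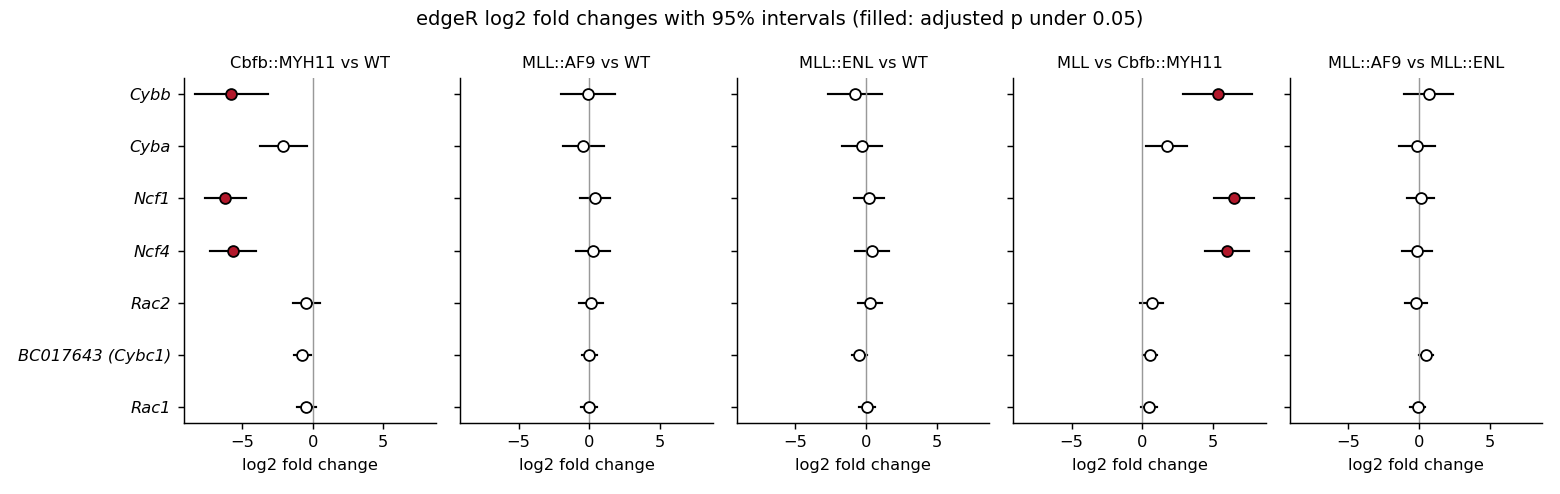
edgeR log2 fold changes (points) with 95% intervals (lines) of the 5 subunits and of BC017643 (Cybc1) and Rac1 in 5 comparisons, with filled points where the adjusted p was under 0.05. Cybb, Ncf1 and Ncf4 are filled in Cbfb::MYH11 vs WT and in MLL vs Cbfb::MYH11, and no point is filled in the other 3 panels.

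The MLL tumors were set against Cbfb::MYH11 tumors as the mean of the MLL::AF9 and MLL::ENL effects, which tests whether the change from WT differed between the tumor types. By the same edgeR fit, 3 of the 5 subunits were higher in MLL tumors and none was lower, where 13.2% of all genes were called higher and 12.4% lower (25.6% in all). The 6 MLL libraries and the 2 Cbfb::MYH11 libraries did not overlap for 4 of the 5 subunits, against 19.5% of genes tested that were higher with no overlap and 20.4% that were lower. The log2 fold changes were 5.32 for Cybb (95% interval 2.91 to 7.73, adjusted p = 0.00633), 6.50 for Ncf1 (5.07 to 7.92, adjusted p = 0.000154) and 5.97 for Ncf4 (4.41 to 7.54, adjusted p = 0.000374). In linear terms these were 39.9-fold, 90.2-fold and 62.8-fold higher. The Cybb call was lost without Cbfb::MYH11 27 (adjusted p = 0.0804) or Cbfb::MYH11 30 (0.0502), and those of Ncf1 and Ncf4 held without any 1 library (at most 0.00484 and 0.00823 by edgeR). Cyba, at 1.74 (0.29 to 3.18, adjusted p = 0.0763), and Rac2, at 0.66 (−0.14 to 1.46, adjusted p = 0.200), did not pass in the edgeR fit, while Cyba passed without the filter on low counts (adjusted p = 0.0252) and with DESeq2 (0.0161). Of the marker genes, 8 of 10 for mature neutrophils and 6 of 6 for granulocyte progenitors were also higher in MLL tumors than in Cbfb::MYH11, and their part in the result was not tested. All libraries of this comparison were spleen tumors, and the Cbfb::MYH11 libraries are shared with the comparison against WT. Only the Cbfb::MYH11 mice received Poly(I:C), and both were female, while the MLL mice were of both sexes by the labels. Poly(I:C) and the way each tumor was made cannot be told apart from the translocation here. Tumor cells were selected for cKit, Gr1 and CD11b, and the antigen that captured them may differ between the models. Itgam, which encodes CD11b, had 10.97 and 6.044 CPM in Cbfb::MYH11 30 and 27, and between 342.3 and 1004 CPM in MLL libraries. Kit went the other way, at 186.6 and 289.7 CPM against between 31.27 and 119.3 CPM. The part of selection in the result was not tested.

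Between MLL::AF9 and MLL::ENL tumors no subunit passed and none had ranges that did not overlap, with 0 of the 5 at an unadjusted p under 0.05 and 0 called by DESeq2 or limma, where 0.0134% of all genes were called. Without overlap, 6.72% of all genes were higher in MLL::AF9 and 6.54% lower. The log2 fold changes ran from −0.18 for Rac2 (95% interval −0.95 to 0.58) to 0.68 for Cybb (−1.04 to 2.40), with adjusted p from 0.859 to 0.973 by edgeR. Against WT no subunit passed in either model, with 0 of 5 at an unadjusted p under 0.05 in each and 0 by DESeq2 or limma, and 1 of 5, Ncf1 in MLL::AF9, had ranges that did not overlap. There 2.88% of all genes were called in MLL::AF9 and 2.1% in MLL::ENL, and in MLL::ENL 21.2% were higher and 23.1% lower with no overlap, but 0 of the 5 subunits. The median log2 fold change of the 5 was −5.64 in Cbfb::MYH11, 0.12 in MLL::AF9 and 0.25 in MLL::ENL, beside −0.01, 0.09 and 0.02 for all genes tested.

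Levels of different subunits were compared only per length, as TPM within a library, which needs no scaling between libraries. Cyba was the highest of the 5 and Cybb the lowest in all 10 libraries. Cyba made up 75.9% and 72.6% of the summed TPM of the 5 in Cbfb::MYH11 30 and 27, between 51.0% and 65.7% in the MLL libraries, and 75.4% and 62.4% in WT 1 and 2. The ratio of Cyba to Cybb, the chains of the heterodimer, was 123.6 and 271.3 in Cbfb::MYH11 30 and 27. The MLL::AF9 libraries 2, 47 and 42 had ratios of 11.7, 29.99 and 6.14, and the MLL::ENL libraries NO, RL and L had 16.2, 19.6 and 46.9. In WT 1 and 2 it was 25.2 and 7.97, so both Cbfb::MYH11 libraries exceeded every other library. The ratio was not tested.

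The ratio of Ncf1 to Ncf4 ran from 0.366 to 1.28 in Cbfb::MYH11, from 0.578 to 1.41 in the MLL libraries, and stood at 0.612 and 1.02 in WT, so these ranges overlapped. Rac2 to Rac1 was 1.24 and 2.24 in Cbfb::MYH11, between 1.44 and 2.23 in MLL libraries, and 1.60 and 1.90 in WT. The blood cell GTPase therefore stood above the ubiquitous one in every library.

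**Figure D4:**
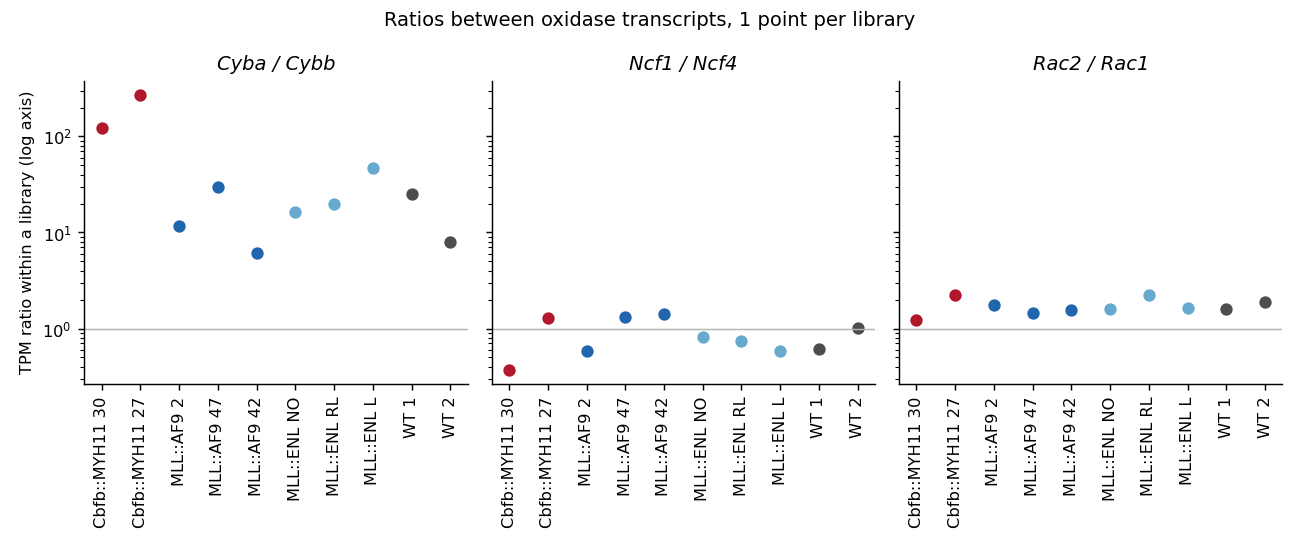
Ratios of TPM within each of the 10 libraries on a log axis for Cyba to Cybb, Ncf1 to Ncf4 and Rac2 to Rac1, with the Cbfb::MYH11 libraries at the left and WT at the right of each panel. Cbfb::MYH11 points lie at 123.6 and 271.3 for Cyba to Cybb, above all other libraries, while the ratio of Rac2 to Rac1 stays between 1.24 and 2.24.

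Of 9 partners of the subunits (among them the chaperone, the proton channel, GTPases and their inhibitors), Cbfb::MYH11 tumors had less of 2 than WT cells, Hvcn1 and Arhgdib, and more of none. The list's median log2 fold change was −0.46, beside −0.01 for all genes, of which 6.92% were called lower and 3.54% higher. Hvcn1, the proton channel that offsets the charge moved by the enzyme, averaged 7.74 ± 0.92 CPM in Cbfb::MYH11 tumors and 222.3 ± 10.8 CPM in WT cells (SD, n = 2 each), and its log2 fold change was −4.84 (adjusted p = 0.00567 by edgeR). Arhgdib, an inhibitor that holds Rac and related GTPases in the cytosol, averaged 443.7 ± 124.6 CPM in Cbfb::MYH11 tumors and 1950 ± 78.0 CPM in WT cells (SD, n = 2 each), and its log2 fold change was −2.14 (adjusted p = 0.0224 by edgeR). The count of 2 fell to 0 without Cbfb::MYH11 27 and to 1 on omission of Cbfb::MYH11 30 or either WT library.

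Cybc1, the chaperone of the membrane heterodimer, is not found by that symbol and was taken to be BC017643 of the deposited tables (chromosome 11 from 121222588 to 121229322). It had 66.3 and 78.1 CPM in Cbfb::MYH11 30 and 27, against 125 and 118 CPM in WT 1 and 2. The groups did not overlap, but the log2 fold change of −0.75 (95% interval −1.35 to −0.15) did not pass (adjusted p = 0.104 from edgeR). Rac1, the Rac GTPase of most cell types, had 295 and 265 CPM in Cbfb::MYH11 30 and 27, against 434 and 326 CPM in WT 1 and 2, and its change of −0.44 on the log2 scale (−1.08 to 0.20) did not pass (adjusted p = 0.355 from edgeR). Against Cbfb::MYH11 the MLL tumors had a log2 fold change of 0.53 for BC017643 (adjusted p = 0.114) and 0.47 for Rac1 (0.182), both from edgeR. Hvcn1 and Arhgdib were higher in MLL tumors than in Cbfb::MYH11, which made 2 of 9 (1 without either Cbfb::MYH11 library) beside 13.2% of all genes, and none of the 9 was lower. No partner passed against WT in MLL::AF9 or MLL::ENL tumors by edgeR (in each, 0 at an unadjusted p under 0.05 and 0 by either DESeq2 or limma). Of 9 genes for other NOX enzymes and their partners, only Noxo1 had enough counts to be tested, and it passed in none of the 5 edgeR comparisons (1 at an unadjusted p under 0.05 in MLL::ENL against WT and 1 in MLL against Cbfb::MYH11, called by DESeq2 in both and by limma in neither).

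Of 10 transcription factors linked to promoters of oxidase genes, 8 passed as lower and none as higher in Cbfb::MYH11 tumors against WT cells, and the median log2 fold change was −2.57. Among all genes tested, 6.92% were called lower and 3.54% higher there, and 13.2% were higher in MLL tumors than in Cbfb::MYH11. Cebpe, which drives the last steps of granulocyte development, had 1.85 and 0.581 CPM in Cbfb::MYH11 30 and 27, against 557 and 440 CPM in WT 1 and 2 (log2 fold change −8.66, standard error 1.03, adjusted p = 0.00139 from edgeR). Cebpd, of the same family, had 3.45 and 3.66 CPM in Cbfb::MYH11 30 and 27, against 208 and 165 CPM in WT 1 and 2 (−5.71, standard error 0.61, adjusted p = 0.000799 from edgeR). Both calls held without any 1 library. Granulocyte progenitor markers were lower in Cbfb::MYH11 for 6 of 6 genes and mature neutrophil markers for 9 of 10. Mpo is both a progenitor marker and a gene of a list that follows. The part of these cells in these values and in those of the lists that follow was not tested. Spi1, which encodes PU.1, and Irf8, chosen for naming after their values were seen, had log2 fold changes of −1.86 (adjusted p = 0.0109) and −2.97 (adjusted p = 0.0138) from edgeR. Hoxa10 and Elf1 did not pass, and the count of 8 was 3 without Cbfb::MYH11 27, 4 without Cbfb::MYH11 30 or WT 1 and 5 without WT 2. In MLL tumors 8 of the 10 were higher than in Cbfb::MYH11, with Cebpe at 7.94 (adjusted p = 0.000494) and Cebpd at 5.34 (0.000232) on the log2 scale by edgeR, and the count was 8 or 9 without each library. Against WT, none passed in MLL::AF9 by edgeR (5 at an unadjusted p under 0.05, 4 by DESeq2, 0 by limma) and 1, Hoxa10, passed in MLL::ENL.

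Hoxa10, a homeobox factor known as a target of MLL fusions and as a repressor of oxidase genes in human myeloid cells, had 55.8, 82.1 and 61.3 CPM in MLL::ENL NO, RL and L, against 0.790 and 0.352 CPM in WT 1 and 2. It had 3.82, 91.7 and 17.4 CPM in MLL::AF9 2, 47 and 42, and 3.66 and 14.3 CPM in Cbfb::MYH11 30 and 27. All 8 tumors thus lay above both WT libraries. The log2 fold change was 6.90 in MLL::ENL (adjusted p = 0.0463 from edgeR, lost with limma and without any 1 of 8 libraries, up to 0.318), 6.08 in MLL::AF9 (0.0527) and 4.01 in Cbfb::MYH11 (0.0893).

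Of 16 signaling genes that lead to oxidase assembly (kinases and Rac exchange factors), 5 passed as lower and none as higher in Cbfb::MYH11 tumors against WT cells: Pak1, Vav3, Pik3r5, Prkcb and Prkcd. Among all genes tested, 6.92% were called lower and 3.54% higher. Pak1, a kinase activated by Rac, had 1.80 and 1.40 CPM in Cbfb::MYH11 30 and 27, against 53.5 and 66.8 CPM in WT 1 and 2 (log2 fold change −5.23, standard error 0.48, adjusted p = 0.000495 from edgeR). Vav3, a Rac exchange factor, had 1.34 and 0.407 CPM in Cbfb::MYH11 30 and 27, against 15.2 and 29.8 CPM in WT 1 and 2 (−4.66, adjusted p = 0.00207 from edgeR). The count of 5 was 2 without Cbfb::MYH11 27 and 3 without WT 2. In MLL tumors against Cbfb::MYH11, 13.2% of all genes were called higher and 12.4% lower. Of the 16, 10 were higher, among them Vav3 at 5.61 (adjusted p = 0.000242) and Pak1 at 5.58 (6.6e-05) from edgeR, and 1 was lower, Prkca, at −4.35 (0.00226). That count was 6 without Cbfb::MYH11 27. The genes of this list did not move as 1 block, since the 3 protein kinase C genes split into Prkcb and Prkcd, which were higher in MLL tumors than in Cbfb::MYH11, and Prkca, which was lower. In MLL::AF9 against WT, Dock2, a Rac exchange factor of leukocytes, passed at 1.42 (adjusted p = 0.0429 from edgeR), with 316, 290 and 325 CPM in MLL::AF9 2, 47 and 42, against 82.2 and 150 CPM in WT 1 and 2, and this call was lost on leaving out any 1 of 8 libraries (up to 0.316) and in a fit of the compared groups only. No gene of the list passed in MLL::ENL by edgeR (DESeq2 called 2, limma called 1, and 5 had an unadjusted p under 0.05).

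**Figure D5:**
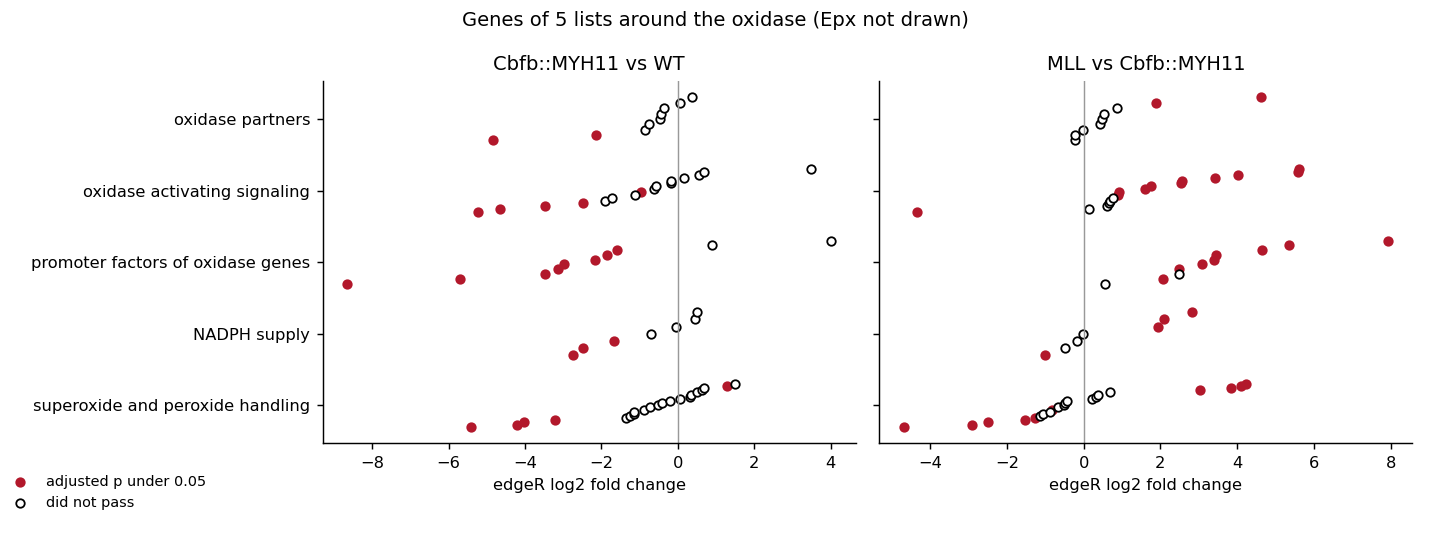
edgeR log2 fold changes of the genes in 5 lists around the oxidase in Cbfb::MYH11 vs WT (left) and MLL vs Cbfb::MYH11 (right), 1 point per gene, filled where the adjusted p was under 0.05, with Epx left out because its Cbfb::MYH11 counts are 0. In the promoter factor list 8 of 10 points are filled on the negative side at left and 8 of 10 on the positive side at right, and the superoxide and peroxide list has filled points on both sides.

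The oxidase is fed by NADPH, and of 7 tested genes that supply it, Cbfb::MYH11 tumors had less of 3 than WT cells, G6pdx, Pgd and Idh1, and more of none. Among all genes tested, 6.92% were called lower and 3.54% higher there. In MLL tumors against Cbfb::MYH11, 13.2% of all genes were higher and 12.4% lower. Pgd and G6pdx, dehydrogenases of the pentose phosphate pathway, had log2 fold changes of −2.76 (adjusted p = 0.00222) and −2.47 (adjusted p = 0.0307), and Idh1, the cytosolic isocitrate dehydrogenase, of −1.68 (adjusted p = 0.00836), from edgeR. Pgd averaged 141 ± 14.8 CPM in Cbfb::MYH11 tumors and 953 ± 61.98 CPM in WT cells (SD, n = 2 each). The count was 1 without WT 1 or without either Cbfb::MYH11 library. In MLL tumors the same 3 were higher than in Cbfb::MYH11, and Me2, the mitochondrial malic enzyme, was lower (−1.02, adjusted p = 0.00543 by edgeR), which did not pass without Cbfb::MYH11 30. None passed against WT in MLL::AF9 (2 at an unadjusted p under 0.05) or MLL::ENL (1) by edgeR, nor any by DESeq2 or limma.

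Of 22 genes that handle superoxide and peroxide, 5 passed as lower in Cbfb::MYH11 tumors against WT cells (Epx, Mpo, Prdx5, Glrx and Gsr) and 1 was higher (Prdx3), beside 6.92% of all genes lower and 3.54% higher. Epx, eosinophil peroxidase, had 0 counts in both Cbfb::MYH11 libraries and 1141 and 1023 CPM in WT 1 and 2, at least 6582-fold lower by a floor of 3 counts per library. It stood at no more than 0.313 CPM in any MLL library, and it passed against WT in all 3 models. Eosinophil markers (6 genes, Epx itself among them) summed to at most 107 CPM in any tumor and at least 6855 CPM in WT cells. Mpo, which makes hypochlorous acid from the peroxide that oxidase activity yields, had 106 and 199 CPM in Cbfb::MYH11 30 and 27, against 5464 and 7553 CPM in WT 1 and 2 (log2 fold change −5.42, adjusted p = 0.0402 from edgeR, lost without either WT or either Cbfb::MYH11 library). The count of 5 was 1 without either Cbfb::MYH11 library, 2 without WT 1 and 3 without WT 2, and the call of Prdx3 was lost without Cbfb::MYH11 27, WT 1 or WT 2.

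Some genes of this list were lower in MLL tumors than in Cbfb::MYH11. Nqo1, a quinone reductase of the antioxidant response, had 3.18, 1.15 and 0.444 CPM in MLL::AF9 2, 47 and 42 and 1.67, 0.541 and 1.41 CPM in MLL::ENL NO, RL and L, against 28.9 and 41.7 CPM in Cbfb::MYH11 30 and 27 (log2 fold change −4.69, standard error 0.60, adjusted p = 0.00059 by edgeR), and it passed without each library in turn. In all, 6 of the 22 were lower in MLL tumors than in Cbfb::MYH11 (Nqo1, Prdx3, Prdx2, Gclc, Gclm and Cat) and 4 were higher (Gsr, Mpo, Prdx5 and Glrx), beside 12.4% of all genes lower and 13.2% higher. These counts were 3 lower and 1 higher without Cbfb::MYH11 27, and 4 lower and 2 higher without Cbfb::MYH11 30. Against WT, Prdx3, the mitochondrial peroxiredoxin, was lower at −1.76 in MLL::AF9 (adjusted p = 0.0115) and −1.48 in MLL::ENL (0.0229), and Prdx2, abundant in red cells, at −3.41 (0.0186) and −3.01 (0.029), by edgeR. The 4 calls were lost without WT 1, where Prdx3 was at −1.55 in MLL::AF9 and −1.29 in MLL::ENL and Prdx2 at −2.53 and −2.15. The Prdx3 call in MLL::AF9 was also lost in a fit of the compared groups only. In MLL::ENL that of Prdx2 was also lost without either Cbfb::MYH11 library, RL or L, and that of Prdx3 without WT 2, NO, RL or L. Hmox1, heme oxygenase, passed in MLL::ENL at −2.13 (adjusted p = 0.0408 from edgeR) and lost the call without any 1 of 6 libraries.

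Genes with the most similar profile over the 10 libraries were ranked by the root mean square difference of mean-centred log2 CPM among 8836 genes with a mean of at least 10 CPM, as a description. Clec5a, a lectin receptor of myeloid cells, was nearest to Cybb (0.33), followed by B430306N03Rik, Ppp1r3d, Hvcn1 and Lrg1. Pstpip1 was nearest to Ncf1 (0.20), followed by Itgam, Pde2a, Ano10 and Nlrp12. Ceacam1 was nearest to Ncf4 (0.28), followed by Itgam, Pstpip1, C1rl and Ncf1. Gpsm3 was nearest to Cyba (0.28), followed by Ypel5, Gmfg, Cotl1 and Sem1, and Rnf166 was nearest to Rac2 (0.18), followed by Lypla2, Smim19, Ndufv3 and Dazap2. Nearest to the mean of the 5 was Itgb2 (0.15), which encodes CD18, the partner of CD11b, followed by Pilrb1, Pilrb2, Pi16 and Prdx5. Itgam encodes CD11b, an antigen on which tumor cells but not WT cells were selected.

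The subunits did not share 1 profile by the same measure. Ncf1 and Ncf4 were 0.43 apart on the log2 scale (ranks 7 and 5 from each other), and Cybb was 0.95 from Ncf1 and 0.90 from Ncf4. Cyba was 0.63 from Rac2, but Rac2 was only at rank 244 from Cyba and Cyba at rank 3375 from Rac2. Rac2 was 2.06 or more from Cybb, Ncf1 and Ncf4. The measure is not scaled to a gene's spread, so genes of small change lie near one another. The nearest genes changed without the Cbfb::MYH11 libraries, when 1 of the nearest 5 was shared for Cybb, 2 for the mean and 0 for Cyba, Ncf1, Ncf4 and Rac2, and Ncf1 was at rank 303 from Ncf4 in place of rank 5.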

How the data were processed

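RNA of magnetically selected cells was sequenced from 2 Cbfb::MYH11, 3 MLL::AF9 and 3 MLL::ENL tumors and 2 WT marrows. Per the labels, the authors checked reads with FastQC, aligned them with STAR to mm10 and quantified genes with RSEM. Versions, annotation and strandedness are not given in the sources used here. The deposited tables hold expected counts, TPM and FPKM by gene for each sample, with lengths. FPKM was deposited by the authors and not used.

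Expected counts were rounded, since edgeR needs whole counts, and filtered by filterByExpr, which left 14875 genes. They were scaled by TMM and fitted in edgeR 4.0.16 (R 4.3.3) with 4 groups and 6 residual degrees of freedom, with glmQLFit and glmQLFTest and Benjamini-Hochberg adjustment. Deposited TPM was used for ratios within a library. RSEM splits reads shared by similar genes, so a gene's count is an estimate. The script was tested on simulated data. The alternatives were RLE scaling, no filter, DESeq2 1.42.0, limma-voom 3.58.1, a fit of the compared groups only and omission of each library, and 2 were chosen after seeing the data, effective length offsets and TPM less its median shift. Named genes are the 5 subunits, Cybc1 and Rac1, up to 5 list genes per comparison with the largest change among those passing, the 5 nearest genes, and counts of 5 or fewer in full. Other names were chosen after seeing values. A further gene of the lists is not reported here. The members and lists were chosen with earlier results of these data known. Nothing says more of the replicates than 1 mouse a library, and p-values measure the spread between these mice. The numbers 42 and 47 are interchanged between sample titles and table names, so values of these MLL::AF9 mice may be exchanged, but not their group. Promoter windows came from RefSeq (GRCm38.p6). Coordinates are those of the deposited tables (mm10) unless credited to RefSeq.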

Additional observations from a re-analysis of the deposited data

Results flagged for a closer look

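The change against WT differed between the MLL tumors and the Cbfb::MYH11 tumors for 3 subunits, by edgeR's test of the difference. The difference on the log2 scale, MLL less Cbfb::MYH11, was 5.32 for Cybb (adjusted p = 0.00633), 6.50 for Ncf1 (adjusted p = 0.000154) and 5.97 for Ncf4 (adjusted p = 0.000374). For each of the 3, all 6 MLL libraries lay above both Cbfb::MYH11 libraries. Among all genes tested, 13.2% were called higher in MLL tumors and 12.4% lower, and 19.5% were higher with no overlap and 20.4% lower. This is the same contrast as that of MLL with Cbfb::MYH11 tumors above, with the limits given there. Dixon's test called no library apart among the 6 MLL libraries for any of the 5 subunits. It weighs only the gap next to the highest or lowest value, so libraries that are high together can hide each other. For Cyba, MLL::AF9 2 and MLL::ENL NO had 2070 and 1985 CPM, and the other MLL libraries at most 858 CPM. For Ncf4 these libraries had 582 and 654 CPM, and the others at most 275 CPM. The test therefore cannot decide whether MLL::AF9 2 and MLL::ENL NO stood apart.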

How the results depend on the processing

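The lower calls of Ncf1 and Ncf4 in Cbfb::MYH11 and their higher calls in MLL against Cbfb::MYH11 held in every alternative run. The count of lower subunits in Cbfb::MYH11 was 4 with no filter, DESeq2, the compared groups only or without MLL::AF9 2, and ran from 2 to 4 over single omissions, as did the count of higher subunits in MLL against Cbfb::MYH11 over all alternatives. Counts of all genes called moved more, to between 414 and 2859 in Cbfb::MYH11 against WT (1556 by TMM), 15 and 1988 in MLL::AF9 (429), 23 and 1737 in MLL::ENL (313), 1439 and 4990 in MLL against Cbfb::MYH11 (3806) and 0 and 505 in MLL::AF9 against MLL::ENL (2). Some changes that did not pass reversed sign over single omissions, and the others kept theirs. Against WT in MLL::AF9 the ranges were −0.73 to 0.40 for Cybb, −1.24 to 0.20 for Cyba, −0.29 to 0.48 for Ncf4, −0.14 to 0.42 for Rac2, −0.0742 to 0.16 for BC017643 and −0.20 to 0.17 for Rac1. In MLL::ENL they were −0.83 to 0.33 for Cyba, −0.50 to 0.54 for Ncf1, −0.17 to 0.64 for Ncf4 and −0.12 to 0.25 for Rac1. In MLL::AF9 against MLL::ENL they were −0.95 to 0.41 for Cyba, −0.16 to 0.88 for Ncf1, −0.68 to 0.42 for Ncf4 and −0.17 to 0.0645 for Rac1. Rac1 in MLL::AF9 was 0.0052 with RLE, 0.0051 with DESeq2 and 0.23 with effective lengths. By deposited TPM the log2 ratio of means against WT was −5.56 for Ncf1 and −4.90 for Ncf4 in Cbfb::MYH11, 1.00 for Ncf1 and 0.82 for Rac2 in MLL::AF9, and 0.99 for Rac2 in MLL::ENL, where the median of all genes also stood 0.65 to 0.70 higher. Of the nearest 5 genes without the Cbfb::MYH11 libraries, 1 was shared for Cybb, 2 for the mean and 0 for each other subunit. No paired analysis was possible because each library is of a different mouse and no link between mice of different groups is given. With groups of 2 and 3, small changes could not be detected.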

Other observations

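Ncf4 and Rac2 lie 296589 bases apart on chromosome 15, with 7 tested genes between them, a stretch chosen after the values were seen. In Cbfb::MYH11 against WT, Csf2rb2 and Csf2rb, chains of cytokine receptors, were higher there (log2 fold change 2.76, adjusted p = 0.00907, and 1.79, adjusted p = 0.0449, from edgeR). Tst and Mpst, sulfurtransferases, were lower (−6.33, adjusted p = 0.000806, and −2.37, adjusted p = 0.00681, from edgeR), and the other 3, Kctd17, Il2rb and C1qtnf6, did not pass. The 4 genes that passed between Ncf4, at −5.64, and Rac2, at −0.46 and not passing, thus split evenly between higher and lower.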
